A study of Homo sapiens with 6 samples.

Results

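The genes described here make the machinery that licenses and copies DNA: the helicase subunits MCM2, MCM4, MCM5 and MCM7, the helicase partners CDC45 and GINS2, the sliding clamp PCNA, and thymidylate synthase, TYMS. They are read by 8 array probes chosen by identifier, 1 per gene, out of 24526 probes for 16922 named genes in the table, and GEO's platform annotation gives all 8 the same gene names. All 8 were detected on all 6 arrays.

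The arrays came from OCM1A, a human cell line that the labels describe as uveal melanoma, grown in RPMI-1640 with 10% serum. The MDR1 shift assay and a flow sorter split the cells into those with and without ABCB1 (MDR1, P-glycoprotein), a membrane pump that exports many drugs. The 2 groups were ABCB1-positive cells (ABCB1pos, n = 3) and ABCB1-negative cells (ABCB1neg, n = 3), numbered 1 to 3 in each, and the design text speaks of 3 independent assays. All 6 samples are of 1 line, and nothing says that the assays started from separate cultures, so the p-values speak for repeats within this line, which may be technical.

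In G1, the origin recognition complex and its helpers CDC6 and CDT1 load the MCM2 to MCM7 ring onto DNA, which licenses an origin. In S phase CDC45 and the GINS complex join the ring to form the active helicase, PCNA holds polymerases on DNA, and TYMS makes the thymidylate that synthesis consumes. Transcription of many of these genes is driven by E2F factors and peaks around the start of S phase, so their summed message is often read as a mark of proliferation. In a bulk sample, fewer cells in S phase and less message per cell cannot be told apart.

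The sort marker differed as its label states. The ABCB1 probe had signals of 408, 514 and 188 in ABCB1-positive cells, against 78.4, 72.0 and 99.0 in ABCB1-negative cells, which is 1.57 ± 0.20 higher on the log2 scale (SE, limma adjusted p = 0.00204). Mean signal per array ran between 668 and 894 in the positive and between 670.3 and 957.7 in the negative arrays. Of 13 probes for melanocyte lineage genes, 11 were detected on all arrays, S100B and 1 of the MITF probes on none, and summed signals of 71592 to 102865 in positive and 68472 to 88199 in negative arrays overlapped. These sums are of signals before normalisation, and PMEL alone had signals of 22771 to 44143, so they say little about the dimmer genes. S100A1 alone was called, higher by 0.90 on the log2 scale (limma adjusted p = 0.0439), with paired differences of 0.76, 0.17 and 1.78, and it was not called without the block (limma adjusted p = 0.192) or without the arrays numbered 3, where it was at 0.46 (limma adjusted p = 0.0737). CD14, PECAM1 and EPCAM each had 1 probe detected on all arrays, none of them called. The COL1A1, PDGFRB, KRT5, KRT14, VWF and CD3E probes and all those for PTPRC were detected on no array.

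Because the members share a regulator in textbook accounts, their promoters were read for E2F-type letters. Of the 8 genes, 6 had an entry in the RefSeq promoter table (GRCh38.p14); MCM4 and MCM5 are not shown. The windows below are the 250 bases before the annotated start of the genes that fell, TYMS and CDC45, and of a pair, GINS2 and MCM2, whose signals followed the replicate number more than the sort. Capitals mark TTTCCCGC, TTTGGCGC or TTTCGCGC (E2F type) and CCAAT (bound by NF-Y), on either strand; the cell cycle homology element, as TTTGAA or, in its other form, TTCGAA, and the TATA box, as TATAAA, were also searched and were in none of them.
TYMS chr18:657403-657652, plus strand: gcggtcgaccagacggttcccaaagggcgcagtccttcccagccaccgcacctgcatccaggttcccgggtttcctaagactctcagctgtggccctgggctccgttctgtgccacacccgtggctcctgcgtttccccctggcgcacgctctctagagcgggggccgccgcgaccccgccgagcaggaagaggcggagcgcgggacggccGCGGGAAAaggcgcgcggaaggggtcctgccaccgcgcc
CDC45 chr22:19479670-19479919, plus strand: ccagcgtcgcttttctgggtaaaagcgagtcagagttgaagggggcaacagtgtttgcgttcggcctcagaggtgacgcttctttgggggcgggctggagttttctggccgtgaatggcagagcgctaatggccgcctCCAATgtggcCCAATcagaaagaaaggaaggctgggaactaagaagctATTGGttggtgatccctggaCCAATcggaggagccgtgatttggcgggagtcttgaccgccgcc
GINS2 chr16:85688955-85689204, minus strand: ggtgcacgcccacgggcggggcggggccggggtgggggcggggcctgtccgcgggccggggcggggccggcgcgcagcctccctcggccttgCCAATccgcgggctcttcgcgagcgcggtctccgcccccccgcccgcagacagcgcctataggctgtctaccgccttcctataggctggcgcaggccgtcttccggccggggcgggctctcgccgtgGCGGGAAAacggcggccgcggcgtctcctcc
MCM2 chr3:127598161-127598410, plus strand: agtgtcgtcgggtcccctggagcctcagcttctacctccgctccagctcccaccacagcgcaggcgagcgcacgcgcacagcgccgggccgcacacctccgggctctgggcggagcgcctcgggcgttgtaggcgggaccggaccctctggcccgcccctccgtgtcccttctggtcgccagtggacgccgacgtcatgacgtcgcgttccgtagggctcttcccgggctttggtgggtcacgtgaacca
An E2F-type match stood 39 to 32 bases before the start of TYMS and 31 to 24 bases before that of GINS2, and MCM7 and PCNA had one as well, so 4 of 6 windows held one, against 2.32% of 35116 promoter windows of this length. The members were chosen as replication genes that share this regulator in textbook accounts, so that share is no result of these arrays. A CCAAT was in 4 of 6 windows, those of CDC45, GINS2, MCM7 and PCNA, against 32% of all windows, and the CDC45 window held 4 of them. No matches overlapped. The windows of CDC45 and MCM2 held none of the E2F-type letters searched. Only those exact strings were sought, so other E2F-type letters would have been missed. The CDC45 window holds tttggcgg near the annotated start, which differs from the searched TTTGGCGC in its last letter only and is therefore not marked.

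TYMS and CDC45 were lower in ABCB1-positive cells, and the other 6 members did not pass the test. Levels are log2 signals after background correction and quantile normalisation, and differences are positive minus negative from limma with the replicate number as a block, adjusted over 13186 tested probes and called at an adjusted p under 0.05. In that fit 20.3% of all tested probes were called with 11.1% called higher and 9.20% lower, and with 8 members the 2 calls are no result about the members as a set. Of all calls 54.8% were higher in ABCB1-positive cells, against 68.0% without the block and 38.7% with the authors' scaled values of the second table. Of the 8 fitted differences, 7 were below 0, with a median of -0.24 on the log2 scale, against -0.018 over all tested probes. Those were split nearly evenly around 0, with slightly more below it. None was called without the block, where 5.15% of all probes passed, 3.50% higher and 1.65% lower. At an unadjusted limma p under 0.05, 4 members passed with the block, as did 36.3% of all tested probes. Without the block 3 members passed, as did 21.6% of all tested probes.

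TYMS (ILMN_1806040), the enzyme that turns dUMP into dTMP and the target of fluoropyrimidine drugs, had log2 levels of 12.88, 12.74 and 12.72 in ABCB1-positive cells, against 13.28, 13.04 and 13.28 in ABCB1-negative cells. Every positive array was below every negative array. The log2 difference was -0.42 ± 0.11 (SE, limma adjusted p = 0.0358), or 1.34-fold lower, and 83.3% of this probe's variation lay between the sorted fractions.

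CDC45 (ILMN_1670238), the factor whose joining turns the loaded ring into a working helicase, had log2 levels of 12.02, 11.92 and 11.68 in ABCB1-positive cells, against 12.49, 12.16 and 12.15 in ABCB1-negative cells. The groups did not overlap, and the gap was narrowest in replicate 2, with a paired difference of -0.24 against -0.47 and -0.46 in replicates 1 and 3. The log2 difference was -0.39 ± 0.11 (SE, limma adjusted p = 0.0453), or 1.31-fold lower. Both calls stood close to the threshold and were lost without the block (limma adjusted p = 0.116 for TYMS and 0.198 for CDC45), under 75th percentile, median and cyclic loess scaling, with no further background correction, and when the arrays numbered 1 or 3 were left out; CDC45 was also lost at an offset of 16. Both differences stayed below 0 in all 19 alternatives. With every positive array below every negative array, leaving arrays out could not turn the sign. Dropping the block or changing the filter or variance prior leaves the difference itself unchanged. Only the other background and scaling settings and the second table could have turned it.

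**Figure D1:**
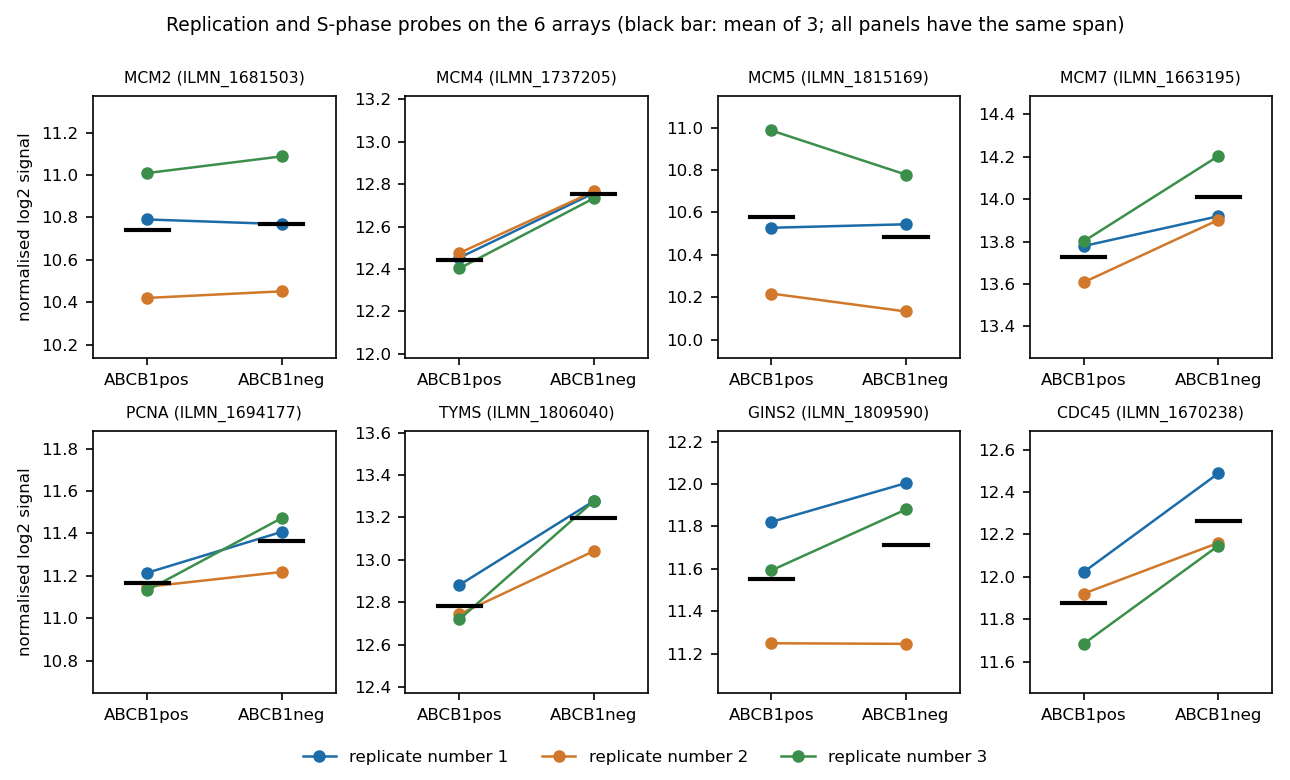
Normalised log2 signal (vertical axis) of each of the 8 probes in ABCB1-positive (left) and ABCB1-negative arrays (right); lines join arrays of the same replicate number and black bars are means of 3. MCM4, MCM7, PCNA, TYMS and CDC45 are lower in every positive array than in any negative array, while MCM2, MCM5 and GINS2 are layered by replicate number.

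The 4 licensing subunits among the members split by how they varied. MCM4 (ILMN_1737205), a motor subunit of the ring, had log2 levels of 12.45, 12.48 and 12.40 in ABCB1-positive cells, against 12.76, 12.77 and 12.73 in ABCB1-negative cells. The paired differences were -0.31, -0.29 and -0.33, so the assays differed little from one another, and 97.7% of the variation lay between the fractions. The log2 difference of -0.31 ± 0.11 (SE, limma adjusted p = 0.0761) still missed the threshold; limma draws each probe's error towards that of the other probes.

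MCM7 (ILMN_1663195), another motor subunit, had log2 levels of 13.78, 13.61 and 13.80 in ABCB1-positive cells, against 13.92, 13.90 and 14.20 in ABCB1-negative cells. The groups did not overlap, at -0.28 ± 0.11 on the log2 scale (SE, limma adjusted p = 0.117). Its size depended on the scaling and was -0.051 with 75th percentile, -0.12 with median and -0.13 with cyclic loess scaling.

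MCM2 (ILMN_1681503), which also handles parental histones at the fork, had log2 levels of 10.79, 10.42 and 11.01 in ABCB1-positive cells, against 10.77, 10.45 and 11.09 in ABCB1-negative cells. MCM5 (ILMN_1815169), whose contact with MCM2 forms the gate of the ring, had log2 levels of 10.53, 10.22 and 10.99 in ABCB1-positive cells, against 10.54, 10.13 and 10.78 in ABCB1-negative cells. In both, the arrays numbered 2 were lowest and those numbered 3 highest in each fraction, and the groups overlapped. The replicate number held 98.99% of the variation of MCM2 and 95.2% of that of MCM5.

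The log2 differences were -0.03 for MCM2 and 0.09 for MCM5 (limma adjusted p = 0.871 and 0.597). Their 95% intervals, for 1 probe each and unadjusted, ran from -0.28 to 0.22 and from -0.16 to 0.35. These intervals overlap those of MCM4 and MCM7, and the difference between subunits was not tested. The sign of the MCM2 difference turned under 75th percentile and cyclic loess scaling.

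GINS2 (ILMN_1809590), a subunit of the GINS complex, had log2 levels of 11.82, 11.25 and 11.59 in ABCB1-positive cells, against 12.005, 11.25 and 11.88 in ABCB1-negative cells. Replicate 2 was lowest in both fractions, the number held 89.1% of the variation, and the log2 difference was -0.16 ± 0.11 (SE, limma adjusted p = 0.368). PCNA (ILMN_1694177), the clamp that encircles DNA behind the fork, had log2 levels of 11.21, 11.15 and 11.13 in ABCB1-positive cells, against 11.41, 11.22 and 11.47 in ABCB1-negative cells. Positive replicate 1 and negative replicate 2 nearly met, and the log2 difference was -0.20 ± 0.11 (SE, limma adjusted p = 0.242).

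MCM4, MCM7, PCNA, TYMS and CDC45 were thus the 5 of 8 members lower in all 3 pairs, which 28.0% of tested probes were, while 27.8% were higher in all 3. For the same 5 the groups did not overlap, which held in that direction for 12.3% of tested probes and in the other for 14.8%. Over the 8 members the sorted fraction held a median of 60.3% of the variation and the replicate number 32.2%, against 27.1% and 44.1% over all tested probes.

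**Figure D2:**
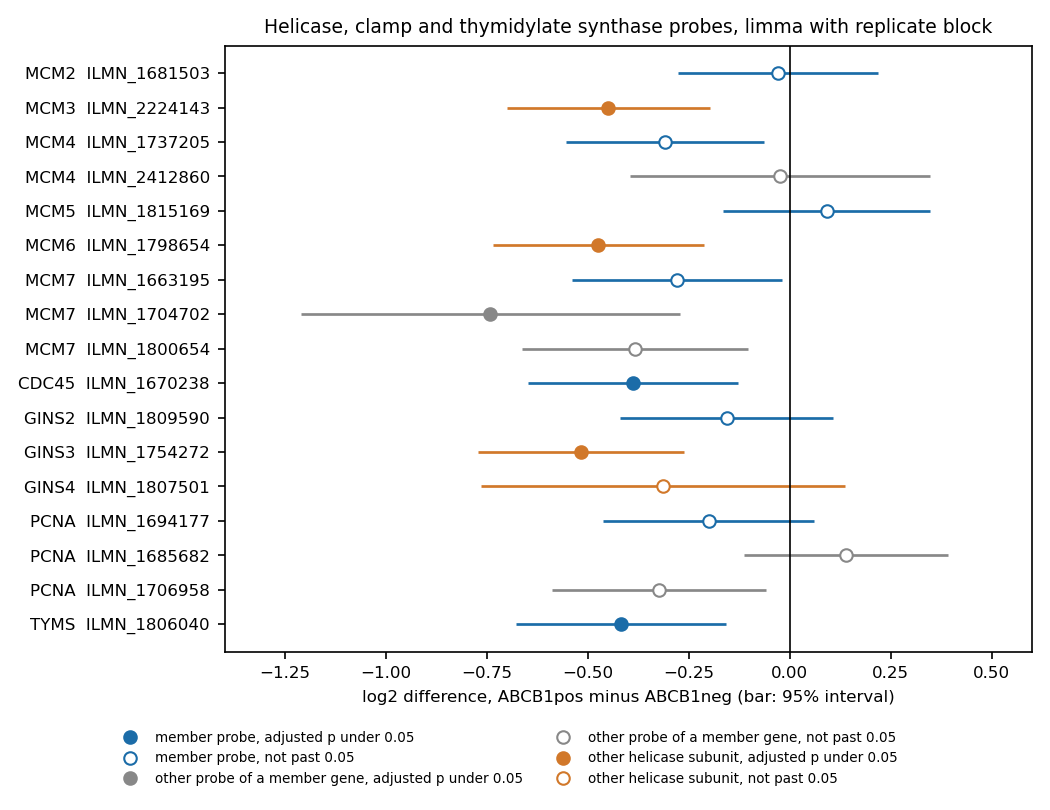
Log2 difference, ABCB1-positive minus ABCB1-negative (horizontal axis), with its unadjusted 95% interval, for the member probes, other probes of the same genes and further helicase subunits. Filled points passed an adjusted p of 0.05 in limma, and MCM3, MCM6, GINS3, CDC45, TYMS and 1 MCM7 probe are filled. The intervals of MCM2, MCM5, GINS2, GINS4, ILMN_1694177 and ILMN_1685682 of PCNA and ILMN_2412860 of MCM4 reach both sides of 0.

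Other probes of the member genes gave a second reading of MCM4, MCM7 and PCNA. Both further MCM7 probes were lower on all positive than on all negative arrays. One of them, ILMN_1704702, had log2 levels of 9.48, 8.56 and 9.43 in ABCB1-positive cells, against 9.97, 9.99 and 9.73 in ABCB1-negative cells, -0.74 ± 0.20 on the log2 scale (SE, limma adjusted p = 0.0378). Positive replicate 2 set much of that size, and without the arrays numbered 2 it was -0.40 (limma adjusted p = 0.0781). The other, ILMN_1800654, stood at -0.38 ± 0.12 (SE, limma adjusted p = 0.0595).

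The second MCM4 probe, ILMN_2412860, disagreed with the member probe, with paired differences of 0.37, 0.02 and -0.46 and a mean of -0.02 ± 0.16 on the log2 scale (SE, limma adjusted p = 0.930). Of the further PCNA probes, ILMN_1706958 stood at -0.32 ± 0.11 (SE, limma adjusted p = 0.0821) and ILMN_1685682 at 0.14 ± 0.11 (SE, limma adjusted p = 0.403). Both were dim, with signals of 111 to 278 and of 74.9 to 109, against 1878 to 3655 for the member probe. The files do not state which transcripts these probes read.

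The remaining helicase subunits extended the range. MCM3 and MCM6, which complete the ring, fell in ABCB1-positive cells, with log2 differences of -0.45 ± 0.11 and -0.47 ± 0.11 (SE, limma adjusted p = 0.0248 and 0.0240). The MCM3 log2 difference was below 0 in all 19 alternatives, and so was that of MCM6. The MCM3 groups did not overlap, so leaving arrays out could not turn its sign. GINS3 fell as well, by 0.52 on the log2 scale (limma adjusted p = 0.0155), GINS4 had a difference of -0.31 ± 0.20 (SE, limma adjusted p = 0.291) that was 0.013 without the arrays numbered 2, and GINS1 was detected on no array. The calls for MCM3, MCM6 and GINS3 were lost without the block (limma adjusted p = 0.0741, 0.211 and 0.212) and, with it, without the arrays numbered 1; that of MCM3 was also lost without those numbered 2. Without positive replicate 3 and without the block MCM6 was at -0.31. Of the 19 alternatives, MCM3 was called in 6, MCM6 in 8 and GINS3 in 10.

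A list of 83 other replication and S-phase genes had a probe for 78 of them, and 91 probes of 73 genes were tested. Of these probes, 5 rose, 10 fell and 76 were not called, which is 16.5% called against 20.3% of all tested probes. Fitted differences were below 0 for 68 of the 91 probes, with a median of -0.18 on the log2 scale, against -0.018 over all tested probes. All tested probes together were split nearly evenly around 0, with slightly more below it. Without the block 2 rose, RPA3 and CHTF18, and 0 fell, where 3.50% of all tested probes were called higher and 1.65% lower. Without the arrays numbered 1 the block gave 2 and 1, against 856 and 477 of all 13186 tested probes. The calls for CCNE1, RPA1 and LIG1 were lost when the arrays of any 1 number were left out, that for ORC5 without those numbered 1 or 2, and those for CDC25A, RNASEH2A and POLE3 without those numbered 1. CDC25A was at 0.23 on the log2 scale without the block and negative replicate 2.

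ORC5, an origin recognition subunit, fell by 0.46 on the log2 scale on 1 of its 2 tested probes (limma adjusted p = 0.0210). That probe was the dimmer, with signals of 60.4 to 162. The brighter one, with signals of 2148 to 4275, had a difference of -0.19 ± 0.12 (SE, limma adjusted p = 0.301), and its groups overlapped. CCNE1, the cyclin that drives entry into S phase, fell by 0.40 (limma adjusted p = 0.0447). The loaders CDC6 and CDT1 had log2 differences of -0.18 ± 0.13 and -0.39 ± 0.19 (SE, limma adjusted p = 0.356 and 0.185), and CDT1 ranged from -1.001 in pair 2 to 0.10 in pair 3. Without the arrays numbered 3, CDT1 passed at -0.64 (limma adjusted p = 0.0310), and without those numbered 2 it was at -0.091. CDC25A, the phosphatase that activates CDK2, rose by 0.47 on 1 probe (limma adjusted p = 0.0238), while its second probe had an adjusted p of 0.947 in the same limma fit. CCNE2 was detected on no array and E2F1 on 1, so neither was tested.

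RPA3, the smallest subunit of the complex that coats single-stranded DNA, had log2 levels of 11.75, 11.62 and 11.84 in ABCB1-positive cells, against 10.68, 10.65 and 10.75 in ABCB1-negative cells. It rose by 1.05 ± 0.11 on the log2 scale, or 2.06-fold (SE, limma adjusted p = 0.00105), and passed in 18 of 19 alternatives. RPA1, the large subunit of the same complex, fell by 0.39 (limma adjusted p = 0.0457), and RPA2 had a difference of 0.13 ± 0.13 (SE, limma adjusted p = 0.515).

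RNASEH2A, the catalytic subunit that removes ribonucleotides from DNA, and CHTF18, part of an alternative clamp loader, each rose by 0.60 on the log2 scale (limma adjusted p = 0.0113 and 0.00964). LIG1, which seals Okazaki fragments, rose by 0.38 (limma adjusted p = 0.0499). UHRF1, which reads half-methylated DNA behind the fork, fell by 0.66 (limma adjusted p = 0.00853), and POLE3, a histone-fold subunit of polymerase epsilon, fell by 0.47 (limma adjusted p = 0.0201). RRM2, the regulated subunit of ribonucleotide reductase, had a difference of -0.23 ± 0.11 (SE, limma adjusted p = 0.169).

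**Figure D3:**
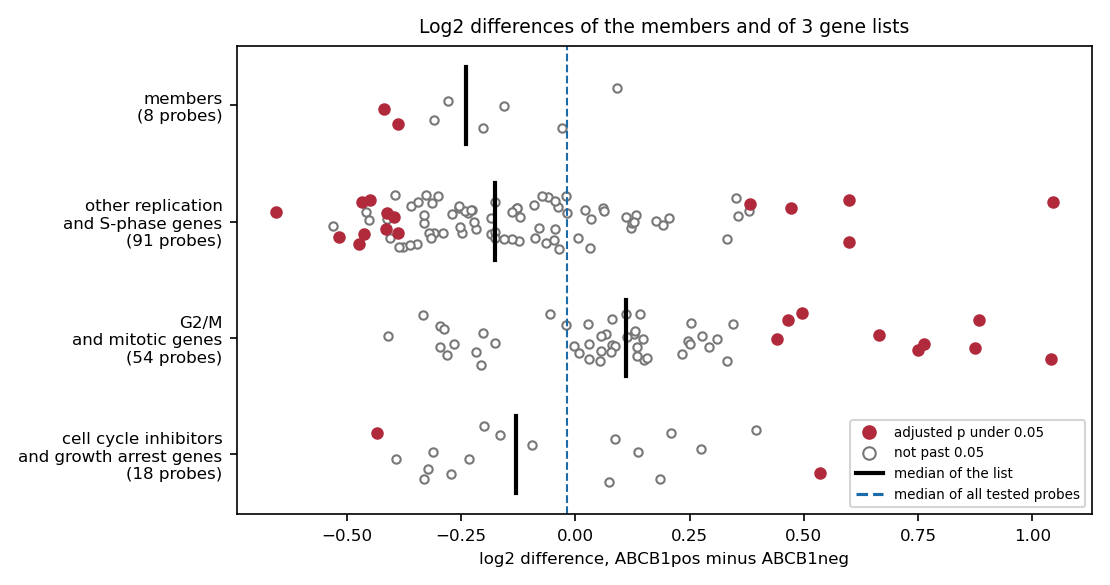
Log2 difference, ABCB1-positive minus ABCB1-negative (horizontal axis), of every tested probe of the 8 members and of 3 gene lists; red points passed an adjusted p of 0.05 and black bars are list medians. The member and replication medians, -0.24 and -0.18, lie left of the dashed median of all tested probes, and the G2/M median, 0.11, lies right of it.

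Of 54 tested probes for G2/M and mitotic genes, 9 rose, 0 fell in limma with the block and 45 were not called; 16.7% were called, against 20.3% of all tested probes, with 11.1% of all called higher and 9.20% lower, and the median was 0.11 on the log2 scale. Without the block 5 rose and 0 fell, against 3.50% of all tested probes called higher and 1.65% lower in that fit. AURKB was one of those lost. The series matrix values gave 2 lower calls, as did the fit without the arrays numbered 3. Over all 13186 tested probes these settings gave 1642 and 1129 lower calls. The median was -0.07 without the block and positive replicate 2. The risers included UBE2C, which tags cyclins for destruction, by 1.04 on the log2 scale on 1 of 2 probes (limma adjusted p = 0.00128), CKS2, a partner of cyclin-dependent kinases, by 0.88 (limma adjusted p = 0.00205), and AURKB, INCENP and CDCA8 of the chromosomal passenger complex, by 0.76, 0.87 and 0.67 (limma adjusted p = 0.00529, 0.0123 and 0.0077). RACGAP1, needed for cytokinesis, rose by 0.75 (limma adjusted p = 0.00871), and the proliferation marker MKI67 had a difference of 0.33 ± 0.11 (SE, limma adjusted p = 0.0697). The difference between the replication and mitotic lists was not tested.

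Of 18 tested probes for cell cycle inhibitors, growth arrest genes and their partners, 1 rose, 1 fell and 16 were not called, which is 11.1% called against 20.3% of all tested probes. CDKN2A, the locus of p16 and ARF, rose by 0.54 on the log2 scale on 1 of 2 probes (limma adjusted p = 0.0265), and CCND3, a G1 cyclin, fell by 0.43 (limma adjusted p = 0.0340); neither was called without the block or without the arrays numbered 1, CDKN2A was also lost without those numbered 3, and CCND3 without those numbered 2. CDKN1A, the p21 inhibitor, had a difference of -0.31 ± 0.12, MYC one of -0.39 ± 0.13 and CCND1 one of -0.10 ± 0.12 (SE, limma adjusted p = 0.106, 0.0665 and 0.615).

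The probes most like the members over the 6 arrays were sought among 2662 tested probes that ranged by at least 1 on the log2 scale, by Pearson's r with the mean of the members' centred levels. SSH1, a phosphatase acting on cofilin, had r = 0.998, followed by POPDC3 with 0.989, SNRPD3, a core protein of splicing particles, with 0.985, the G protein subunit GNA12 with 0.985 and the forkhead factor FOXD2 with 0.983. The mean member level was lowest in positive replicate 2, at -0.24, and highest in negative replicate 3, at 0.23. These arrays share their sort and replicate numbers, so high values of r over 6 points are a description only. The members' profile is lower in the positive arrays, so a choice by likeness to it fixes the direction of these 5 probes, and their differences are not given as results.

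**Figure D4:**
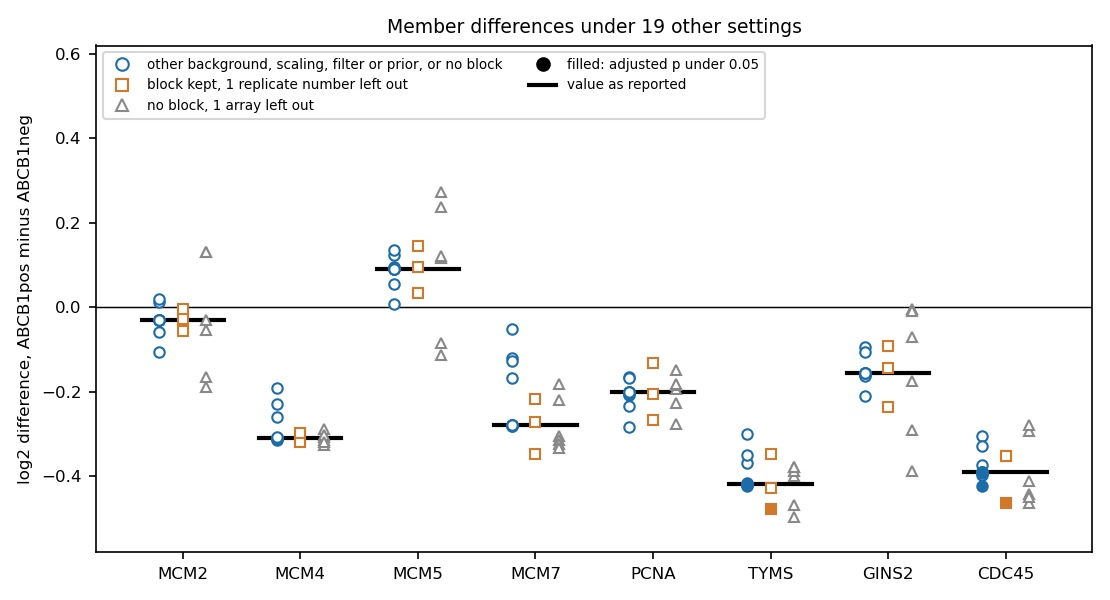
Log2 difference, ABCB1-positive minus ABCB1-negative (vertical axis), of the 8 members under 19 other settings, with the reported value as a black bar and filled symbols for an adjusted p under 0.05. TYMS, CDC45, MCM4, MCM7, PCNA and GINS2 stay below 0 throughout, MCM2 and MCM5 fall on both sides, and filled symbols occur for TYMS and CDC45 alone.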

How the data were processed

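The deposited table gives, per the file headers, a signal and a detection p-value for 24526 probes on each of 6 1-colour Illumina arrays. Some of the deposited intensity values are negative, which means that background was taken off earlier; the scanner software was not given in the sources used here. Detection p-values, as deposited, step by 1 in 664. The second deposited table holds the same intensity values multiplied by 1 factor per array, which gives every array a mean of 787.44. Gene names came from GEO's platform annotation (21834 probes with 1 symbol, 0 with several, 2692 with none), updated by gene ID.

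Signals were background-corrected (normexp, offset 50, which compresses low signals), quantile normalised and log2 transformed (limma 3.58.1, R 4.3.3). Probes with a detection p under 0.05 on at least 3 arrays, 13186 in all, were fitted (lmFit, eBayes), and two-sided p-values were adjusted by Benjamini and Hochberg's method. The replicate number was a block, as the rule that chose the members asks; the fit without it is an alternative. The design text's 3 assays give the pairing, and deviations of same-numbered arrays correlated with r = 0.48, 0.64 and 0.48 across probes. The fit was tested on simulated data with independent noise, set differences in a small share of probes and no change of scaling. That test cannot speak for calls that depend on the scaling. The number of arrays limits precision, and slide and scan date were not used here.

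Members and lists were chosen with earlier results of these data known. Named were all members, the 10 called replication and 6 called probes of each other list with the largest change, and 10 fixed genes; GINS4, RPA1, RPA2, LIG1 and the absent GINS1 were added after their values were seen. Promoter windows came from RefSeq. Alternatives covered background, scaling, filter, variance prior, block, the second table and left-out arrays.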

Additional observations from a re-analysis of the deposited data

How the results depend on the processing

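Other probes, lists and member values were recomputed under 19 alternatives; those for ABCB1, the inhibitor list and other named genes, and some settings of the replication and mitotic lists (offset 16, cyclic loess, strict filter, variance prior, series matrix values, and 1 array left out without the block), were chosen after seeing the data. Without the block the counts of called probes were 679 in all, 462 higher and 217 lower, against 2682, 1469 and 1213 with it, a share of higher calls of 68.0% against 54.8%; 0 members, 2 replication, 5 mitotic and 0 inhibitor probes were called. Median scaling gave 1348, 763 and 585, with 0, 2, 5 and 0 of those lists. Members called were 1 at offset 16 and 0 with no further background correction and under 75th percentile and cyclic loess scaling, where replication calls were 6 and 9 for the first 2; inhibitor calls were 1 in these 3, with the series matrix values and with the brightest probe per gene. TYMS had log2 differences of -0.42 without the block, -0.42 with no further background correction, -0.30 with 75th percentile, -0.37 with median and -0.35 with cyclic loess scaling (limma adjusted p = 0.116, 0.0989, 0.155, 0.188 and 0.0622). CDC45 had -0.39, -0.40, -0.30, -0.37 and -0.33 there, and -0.39 at offset 16 (limma adjusted p = 0.198, 0.115, 0.151, 0.187, 0.0795 and 0.0618). Sign changes of uncalled probes were MCM2 (0.012 with 75th percentile and 0.021 with cyclic loess scaling), ILMN_2412860 of MCM4 (0.0097 and 0.0225) and CCND1 (0.066 and 0.0091).

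Leaving out the arrays of 1 number under the block, or 1 array without it, gave 20 to 2732 called probes, 8 to 1435 higher and 12 to 1297 lower, 0 to 2 members, 0 to 14 replication, 0 to 11 mitotic and 0 to 1 inhibitor probes. TYMS then ranged from -0.50 to -0.35, CDC45 from -0.46 to -0.28, ABCB1 from 1.27 to 1.87, MCM2 from -0.19 to 0.13, MCM5 from -0.11 to 0.27, ILMN_2412860 from -0.24 to 0.22, CCND1 from -0.34 to 0.23, CDKN1A from -0.85 to 0.13, GINS4 from -0.50 to 0.013 and RPA2 from -0.011 to 0.28. Of 31 probes named in the text that passed with the block, 8 were called without it and 11 without the arrays numbered 1. ABCB1, the sort marker, and the 5 probes most like the members are among the 31. All 31 kept their sign in every alternative that gave them a value. They were picked for passing with the block, many for a large difference, and the choice of the 5 fixed their direction. Their kept signs are therefore no separate support. What causes the shifts in calls and sizes between settings was not tested. The median over all tested probes was -0.018, and -0.11 with the series matrix values, where the member median was -0.25. In the main fit the member median was -0.24 and that of the replication list -0.18. With 75th percentile scaling the medians were 0.020 over all tested probes, -0.13 for the members and -0.11 for the replication list. Cyclic loess scaling gave -0.010, -0.15 and -0.12 in the same order, and median scaling -0.049, -0.20 and -0.18.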
